A study of Homo sapiens with 6 samples.

Results

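The regions described here were TET2 peaks that were listed only after OPA1 treatment and lay far from every protein-coding gene. A peak was a member when it was on chromosomes 1 to 22 or X, shared no base with a TET2 peak of the DMSO list, and had its centre outside all protein-coding genes and more than 10000 bp from every protein-coding gene end. Members were thus chosen by the positions of called peaks in both TET2 lists, so their absence from the DMSO list and their distance over 10000 bp are no findings. In all, 608 of the 1513 TET2 peaks of the OPA1 list alone met this rule (40.2%, Wilson 95% interval 37.7 to 42.7%). They were drawn from 1683 TET2 peaks of the OPA1 list on these chromosomes and from 3606 peaks in the 4 deposited lists together. Listing in OPA1 alone was set by the rule and held for 89.9% of the 1683 peaks. The remaining OPA1-only peaks comprised 350 within 10000 bp of a protein-coding gene end and 555 deeper inside genes.

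The data came from chromatin immunoprecipitation with sequencing (ChIP-seq) in THP-1, a long-established line of human myeloid leukaemia cells that resemble monocytes. The cells had been kept for 48 hours with DMSO, the solvent control, or with OPA1, which is here the name of an added compound and not the mitochondrial gene of that symbol. Each treatment gave 1 TET2 library, 1 EGR1 library and 1 input library of chromatin without antibody, all from this single cell line without any added allele or transgene named in the labels. No group was replicated, so a difference between DMSO and OPA1 has no replicate check, and all comparisons below are descriptions without a test. The TET2 libraries held 19779007 filtered tags (sequenced fragment ends, 1 kept per position) in OPA1 and 19782924 in DMSO. Intervals for shares and tag numbers cover counting error only.

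TET2 is a dioxygenase that oxidises 5-methylcytosine to 5-hydroxymethylcytosine and further products, a route by which DNA loses methylation at CpG dinucleotides. It lacks the CXXC DNA-binding domain of its relatives and is brought to DNA largely by partner proteins. In blood cells it is known for acting at distal enhancers, and loss of TET2 is frequent in myeloid leukaemia. Sequence far from protein-coding genes also holds long noncoding RNA (lncRNA) genes, microRNA (miRNA) genes and pseudogenes, which the rule did not use.

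Sequence is shown first for members that lay on the start of a lncRNA gene, because there the bases under the peak are known. CpG dinucleotides are marked, as TET2 oxidises their cytosine where it is methylated. Methylation at these sites was not analysed here. A promoter window was the 250 bases before to 50 bases after a gene's start in RefSeq (GRCh38.p14). Of the 608 members, 6 overlapped such a window of a lncRNA gene (0.987%, 0.453 to 2.14%), beside 1.43% of all OPA1 TET2 peaks. The 4 printed here span the range of CpG content, and each sequence is the stretch shared by the peak and the window, 5′ to 3′ on the strand of the lncRNA, with every CpG in capitals. They lie at chr1:203287450-203287731 (plus strand, LINC01353), chr1:22025356-22025553 (plus, LINC00339), chr11:124718303-124718545 (plus, LOC107984405) and chr4:38743950-38744171 (plus, LOC105374413).
LINC01353: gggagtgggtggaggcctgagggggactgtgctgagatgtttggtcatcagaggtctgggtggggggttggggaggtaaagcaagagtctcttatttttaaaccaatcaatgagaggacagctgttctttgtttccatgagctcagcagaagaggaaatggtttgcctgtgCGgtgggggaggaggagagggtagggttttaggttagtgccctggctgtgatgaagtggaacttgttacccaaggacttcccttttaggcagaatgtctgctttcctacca
LINC00339: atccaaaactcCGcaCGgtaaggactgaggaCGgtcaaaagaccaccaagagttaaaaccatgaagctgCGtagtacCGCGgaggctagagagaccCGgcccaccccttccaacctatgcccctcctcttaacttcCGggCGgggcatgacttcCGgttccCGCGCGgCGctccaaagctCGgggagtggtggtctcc
LOC107984405: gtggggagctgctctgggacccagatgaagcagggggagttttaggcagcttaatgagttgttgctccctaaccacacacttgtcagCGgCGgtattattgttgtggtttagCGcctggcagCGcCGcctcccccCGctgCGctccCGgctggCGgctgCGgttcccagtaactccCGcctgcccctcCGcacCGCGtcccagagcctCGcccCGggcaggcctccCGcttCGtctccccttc
LOC105374413: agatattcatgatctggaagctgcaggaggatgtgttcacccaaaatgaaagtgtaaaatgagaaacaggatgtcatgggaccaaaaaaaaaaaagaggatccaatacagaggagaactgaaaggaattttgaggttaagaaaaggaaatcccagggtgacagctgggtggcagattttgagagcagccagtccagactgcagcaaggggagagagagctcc

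These windows ranged from CpG-rich to CpG-free. The LOC107984405 window held 21 CpGs in 300 bases, 18 of them under the peak, and LINC00339 held 18, of which 15 were under the peak. The LINC01353 window held 1 and the LOC105374413 window none. Over 12829 lncRNA promoter windows the median was 5 CpGs (quartiles 2 and 16). The remaining windows, of GLYATL1-AS1 and LOC124900931, held 9 and 6.

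The LINC01353 peak had 15 tags (exact Poisson 95% interval 8.40 to 24.7) and a fold of 18.8 over local background, the highest fold of the 6. It lay 17946.5 bp from BTG2, an antiproliferative gene induced by p53. The LINC00339 peak had 10 tags (4.80 to 18.4) and a fold of 11.76, 12939.5 bp from CELA3A, a pancreatic elastase gene. The LOC107984405 peak had 13 tags and a fold of 8.27, and the LOC105374413 peak, 28148.5 bp from the Toll-like receptor gene TLR10, had 12 tags and a fold of 8.33. The GLYATL1-AS1 peak had 10 tags. This peak and that of LINC00339 each had a peak false discovery rate (the caller's estimate from exchanging ChIP and input) of 5.31%. The other promoter peaks had 2.02 to 4.41%, and 22.7% of all members were above 5%. The LOC124900931 peak had most, 33 tags (22.7 to 46.3) at a fold of 7.85, 44707 bp from TRIP13, a mitotic checkpoint ATPase gene. Tags and CpG number therefore did not run in 1 order over these 6 sites. The EGR1 motifs GCGTGGGCG and GCGGGGGCG, searched on both strands, were in none of the 6 windows and in 0.359% and 2.65% of all lncRNA windows. The letters GAGGAAG, which match the core bound by the ETS factor SPI1, were in 2 of the 6 whole windows and in 12.4% of all. In the GLYATL1-AS1 window they lay under the peak, and in the LOC124900931 window they lay outside it.

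A miRNA hairpin lay within 20000 bp of 10 members (1.64%, 0.896 to 3.001%), beside 2.97% of all OPA1 TET2 peaks. At chr X, 1 peak (134186900 to 134187089, 10 tags, 4.80 to 18.4, fold 12.81) lay upstream of a cluster of 6 hairpins on the minus strand, MIR106A, MIR18B, MIR20B, MIR19B2, MIR92A2 and MIR363. The peak centre was 16716.5 bp before the first hairpin, MIR106A, and 17542.5 bp before the last, MIR363. This cluster is a paralog of the MIR17HG cluster, and miRNAs of both are known to promote growth in blood cancers. The main mature miRNAs are given 5′ to 3′ from RefSeq, with the seed (bases 2 to 8) that pairs with target mRNAs in capitals.
miR-106a-5p: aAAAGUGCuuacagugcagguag
miR-18b-5p: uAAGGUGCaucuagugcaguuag
miR-20b-5p: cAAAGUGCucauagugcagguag
miR-19b-3p: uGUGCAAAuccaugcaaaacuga
miR-92a-3p: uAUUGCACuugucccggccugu
miR-363-3p: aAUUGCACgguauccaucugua

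Here miR-106a-5p and miR-20b-5p share the seed AAAGUGC, and miR-92a-3p and miR-363-3p share AUUGCAC, while miR-18b-5p and miR-19b-3p each have a seed of their own. The MIR4280 peak on chromosome 5 had 10 tags and a fold of 10.85, and lay in the host transcript MIR4280HG, 6528 bp before the hairpin. The MIR1471 peak lay 13903.5 bp before its hairpin, with 9 tags. The MIR2117 and MIR6131 peaks, with 9 and 17 tags, lay beyond the hairpins. The MIR4487 hairpin lay 6111 bp from a peak of 12 tags by SPI1, MIR548A2 lay near a peak of 23 tags by MYB, and the 3 others were on chromosome 8 with 15 to 17 tags. Expression of these miRNAs was not analysed here.

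The members were remote from protein-coding genes. The median distance from peak centre to the nearer end of the nearest protein-coding gene was 81154 bp (quartiles 34869.75 and 280637 bp), with a range from 10072.5 to 4776352 bp. Between 10000 and 50000 bp lay 221 members, 110 lay up to 100000 bp, 197 up to 500000 bp, 53 up to 1000000 bp and 27 beyond. Where the strand of the nearest gene was known, its start faced the peak for 244 of 469 members (52.03%, 47.5 to 56.5%), and the interval includes an even split. The distal name holds for protein-coding genes only: 321 members (52.8%) had no noncoding gene or pseudogene within 10000 bp either. The others had a noncoding gene or pseudogene that near or around them. V, D and J segments, C regions and genes classed as other were not counted.

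**Figure D1:**
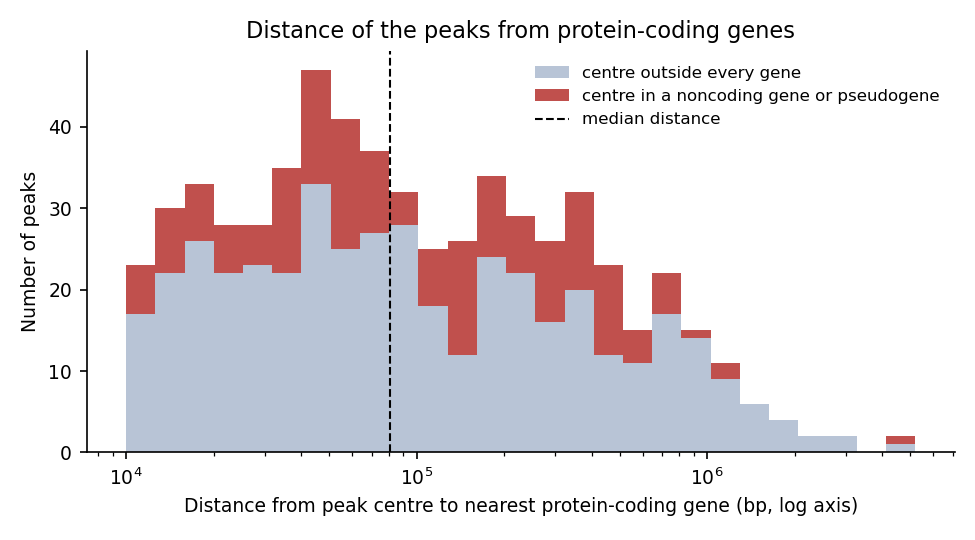
The distance from peak centre to the nearest protein-coding gene (bp, log axis) is plotted against the number of peaks for the 608 members, with those centred in a noncoding gene or pseudogene stacked in red. The dashed line is the median of 81154 bp, and 27 peaks lie beyond 1000000 bp.

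Just inside the distance limit lay the peak by SLC22A3, an organic cation transporter gene, at 10072.5 bp with 30 tags and a fold of 15.33. Next came ATP6V0D2, a proton pump subunit gene, at 10131 bp with 14 tags, and ETV3, an ETS repressor gene, at 10225 bp with 30 tags. The SLC22A3 and ETV3 peaks were among the 11 members with 30 or more tags. Just outside were peaks by MBL2 (9840 bp, 13 tags), KANK1 (9849 bp, 13 tags) and ADAT3 (9907 bp, 14 tags).

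The 5 members farthest from a protein-coding gene comprised 4 on chromosome 22 below OR11H1, an olfactory receptor gene, and 1 on chromosome 4 beyond PCDH7, a protocadherin adhesion gene. The chromosome 22 peaks started at 10751663, 10769741, 12694543 and 12703917, held 21, 10, 9 and 10 tags, and lay 2824159.5 to 4776352 bp from the gene. The PCDH7 peak at 33419688 to 33419987 held 12 tags at 2273037.5 bp. The 27 members beyond 1000000 bp had a median of 10 tags, and 66.7% of them had a peak false discovery rate, the caller's estimate from exchanging ChIP and input, of at most 5%. That share was 79.2% between 10000 and 50000 bp and 79.1% between 50000 and 100000 bp. The order of tags and distance over members was weak (Spearman rho -0.08, 608 peaks of 1 library). Repeat content and mappability at these positions were not analysed here.

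The members had 972 different protein-coding genes as nearest neighbour on either side, 4.9% of 19821. Among 56 regulators of myeloid cells and leukaemia, 14 flanked a member (25%), among them RUNX1, RUNX2, CEBPA, CEBPB, SPI1, MYB, GATA2, LMO2, ERG, ETS1, IKZF1, ZEB2 and KIT. The sequence without coding genes beside a gene was also longer for these regulators, with a median of 142279.5 bp against 39282 bp over all genes, and its part in the count was not tested. Far TET2 peaks of the DMSO list alone flanked 7 of the 56 (12.5%) and 2.71% of all genes, and 2 of the 56 flanked peaks of both kinds. The 19 peaks beside the 14 regulators held 9 to 23 tags (median 12) with folds of 6.28 to 17.08 (median 10.66). A peak false discovery rate (FDR) above 5% was given to 8 of the 19 (42.1%, 23.1 to 63.7%), among them the CEBPB, IKZF1, LMO2, ZEB2 and KIT peaks and 1 of the RUNX1 pair, beside 22.7% of all members.

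**Figure D2:**
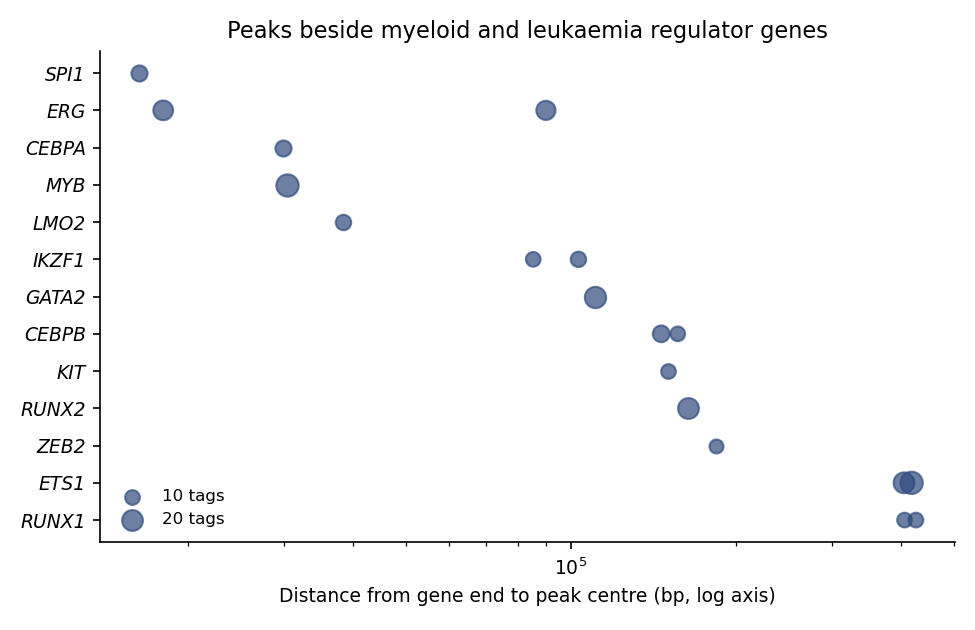
Each point is 1 peak beside a myeloid or leukaemia regulator gene named in the text, placed by the distance from the nearer gene end to the peak centre (bp, log axis), with its area showing the tags. SPI1 and ERG have the nearest peaks, at 16312 and 18036.5 bp, and the ETS1 and RUNX1 peaks lie at 405751.5 to 426600.5 bp.

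Among the blood transcription factor genes, SPI1, CEBPA and GATA2 had a peak each. The peak nearest to SPI1, which encodes the myeloid master regulator PU.1, lay at chr11:47394716-47395002, 16312 bp beyond the upper gene end. This peak had 12 tags (6.2 to 20.96), a fold of 10.52 and an FDR of 2.24%. Its nearest coding gene was SLC39A13, at 12417 bp, and its centre lay in the lncRNA gene SLC39A13-AS1. SPI1 is transcribed toward lower coordinates, so the peak was upstream of its start, on the side of its known upstream regulatory element. CEBPA, which drives granulocyte and monocyte differentiation, had a peak 29847 bp before its start (chr19:33332210-33332552) with 12 tags and a fold of 15.92. The GATA2 peak (chr3:128603755-128604096) lay 110724.5 bp before the gene's start and 16043.5 bp from RPN1, with 21 tags (12.999 to 32.1) and a fold of 11.55. A distal blood-cell enhancer of GATA2 is known in the interval toward RPN1. Whether the SPI1 or GATA2 peak covers the known element was not tested.

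ERG, an ETS factor gene of blood stem cells, had peaks 18036.5 and 90089 bp before its start, with 18 and 17 tags and folds of 14.66 and 17.08. The second of these lay in LINC00114, nearer to ETS2 at 53311 bp, and had an FDR of 0%. MYB, a factor of immature blood cells, had a peak 30350.5 bp past its end with 23 tags (14.6 to 34.5) at a fold of 6.28, the lowest of these folds. The LMO2 peak, by a blood-forming adaptor gene, held 11 tags at 38405.5 bp. IKZF1, which encodes the lymphoid and myeloid factor Ikaros, flanked peaks 103282.5 and 85415 bp before its start with 11 and 10 tags. The nearest coding gene of both was SPMIP7, at 40916.5 and 58784 bp.

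Several of these genes had a pair of peaks. CEBPB had peaks at 146251.5 and 156794.5 bp past its end with 13 and 10 tags. ETS1 had peaks of 23 and 20 tags at 418927.5 and 405751.5 bp, the second in the lncRNA gene LOC107984374. RUNX1, a gene recurrently rearranged in leukaemia, had peaks of 10 tags each at 406717 and 426600.5 bp before its start, both in the lncRNA gene LOC100506403. The RUNX2 peak held 20 tags, the KIT peak 10 and the ZEB2 peak 9. Of the 19 peaks, 10-tag sites such as those of KIT and RUNX1 have counting intervals of 4.80 to 18.4, so their order by tags is not resolved.

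Genes of the TET pathway flanked members about as often as all genes did. Of 22 genes for DNA methylation and its removal, CXXC4 alone flanked one (4.55%), at 365873.5 bp with 13 tags and a fold of 8. Another coding gene lay nearer to that peak. CXXC4 also flanked a far DMSO-only peak, again alone among the 22 (4.55%), beside 2.71% of all coding genes. CXXC4 encodes IDAX, a CXXC protein that binds CpG-rich DNA and interacts with TET2. Of 8 genes for opioid receptors and peptides, 2 flanked a member (25%), beside 4.9% of all coding genes. Far DMSO-only peaks flanked 1 of the 8 (12.5%), beside 2.71% of all coding genes. The median sequence without coding genes beside these 8 was 136890 bp, longer than the 39282 bp over all genes, and its part was not tested. OPRM1, which encodes the mu opioid receptor, flanked a peak of 9 tags (4.12 to 17.1) 696133.5 bp before its start. The nearest coding gene of that peak was RGS17, at 183080.5 bp, and its centre lay in the lncRNA gene LOC105378066. PENK, the proenkephalin gene, was the nearest coding gene of a peak of 14 tags at 163111 bp. Both peaks had FDRs above 5%, at 5.25% and 5.16%.

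Among gene families, 16 of 93 cadherin and protocadherin genes flanked a member (17.2%), beside 4.9% of all coding genes, among them CDH2, CDH6, CDH8, PCDH7, PCDH9 and PCDH10. SOX and FOX transcription factor genes numbered 8 of 71 (11.3%), including SOX4, SOX9 and FOXA2. Homeobox genes numbered 6 of 93 (6.45%), zinc finger genes 25 of 517 (4.84%) and olfactory receptor genes 4 of 389 (1.03%). The homeobox and zinc finger shares were thus near that of all genes and the olfactory receptor share below it. Far DMSO-only peaks flanked 8 of the cadherin genes (8.60%), 1 of the SOX and FOX genes (1.41%) and 6 of the olfactory receptor genes (1.54%), beside 2.71% of all coding genes. The median sequence without coding genes beside SOX and FOX genes was 214313 bp, longer than the 39282 bp over all genes, and its part was not tested. Over all 93 cadherin and protocadherin genes it was 39027 bp, near that of all genes. This median does not describe the 16 that flanked a member, and the part of such sequence in their count was not tested.

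Noncoding genes held many members. A centre lay inside a noncoding gene or pseudogene for 173 members (28.5%, 25.01 to 32.2%), beside 16.9% of all OPA1 TET2 peaks, most of which lay in or near coding genes. Among TET2 peaks far from coding genes, the share was 24 of 67 in both lists (35.8%, 25.4 to 47.8%) and 89 of 312 in DMSO alone (28.5%, 23.8 to 33.8%). Noncoding genes and pseudogenes covered 24.4% of the sequence far from coding genes. The share in noncoding genes was therefore close to that of far DMSO-only peaks, whose interval it fell inside. Only 9.94% of those DMSO-only peaks met an FDR of at most 5% in their own list.

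The 173 members lay in 176 noncoding genes, of which 156 were lncRNA genes, 11 transcribed pseudogenes and 9 other pseudogenes. These lncRNA genes were long, with a median of 62734.5 bp against 9129 bp for all lncRNA genes in the table. A longer gene holds a peak centre more easily wherever peaks lie, so a longer median was favoured by the choice of hosts. The table also includes lncRNA genes in or beside coding genes, so the difference is no finding about the members. Of the 173, 29 (16.8%, 11.9 to 23.04%) had their centre within 1000 bp of a noncoding gene end. Members inside and outside noncoding genes both had a median of 11 tags, with median folds of 11.43 and 10.91. An FDR of at most 5% was met by 142 of the 173 inside (82.1%) and 328 of the 435 outside (75.4%).

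By fold, the leading noncoding hosts were LOC107984788 by TLE3 (27 tags, fold 23.62) and LOC105376387 by SFMBT2 (18 tags, fold 22.22). They were followed by RPL34-DT, a divergent transcript of a ribosomal protein gene (14 tags, fold 19.22), LINC01353 (15 tags, 18.8), LOC105374164 by RAP2B (13 tags, 18.75) and LOC101927902 by LHFPL3 (15 tags, 18.11). LINC01478 by SETBP1, a gene mutated in myeloid neoplasms, held 16 tags at a fold of 17.91, and CFAP20DC-DT by FHIT held 11 tags at 17.08. Of 25 noncoding genes listed for their role in blood cells or chromatin, 24 were in the table and LINC-PINT, a p53-induced lncRNA gene, held a member. That peak (chr7:130960354-130960703) had 18 tags and a fold of 11.43. MALAT1, NEAT1, HOTAIRM1, MIR223HG and MIR17HG were on that list and held no member.

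Most members stood alone. With members joined when their centres were within 100000 bp, 83 (13.7%, 11.1 to 16.6%) fell into 41 groups, namely 40 pairs and 1 group of 3, and 525 were single. Counting any other OPA1 TET2 peak within 100000 bp gave 110 members (18.1%), beside 19.4% of all OPA1 TET2 peaks. Grouped members had a median of 12 tags and single members 11, with median folds of 10.66 and 11.11.

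The group of 3 lay between FN1, the fibronectin gene, and MREG on chromosome 2, from 215681131 to 215741379, 198040 bp or more from a coding gene. Its peaks held 16, 10 and 11 tags with folds of 13.33, 8.10 and 11.11, and all lay in LINC00607, the lncRNA gene that held most members. A further 13 noncoding genes held 2 members each. The closest pair lay before the start of ADRB1, the beta-1 adrenergic receptor gene, with centres 459 bp apart (chr10:114024821-114025159 and chr10:114025323-114025575) and 13 and 14 tags. Pairs within 10000 bp numbered 9, and their genes included TRIQK (515.5 bp apart, 17 tags each), SETBP1, NID1, LHFPL3, WDR7 and FNDC3B. Over the 40 pairs, the median spacing was 29250.5 bp. Members of a pair come from the same library and are not separate samples.

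Members were spread over all 23 chromosomes. There were 4.11 members per 10 Mb of sequence far from coding genes, and 2.11 far DMSO-only peaks on the same scale. An FDR of at most 5%, each in its own list, was met by 77.3% of members and 9.94% of those DMSO-only peaks. This far sequence made up 49.9% of the span between the first and last gene of each chromosome and includes assembly gaps. The density was highest on chromosome 20 with 7.56 (4.79 to 11.3, 23 members), chromosome 15 with 7.41 (4.80 to 10.9, 25 members) and chromosome 8 with 6.2 (4.57 to 8.22, 48 members). It was lowest on chromosome X with 0.855 (0.369 to 1.68, 8 members) and chromosome 9 with 1.79 (0.980 to 3.01, 14 members). The intervals of chromosomes X and 9 lay wholly below the overall 4.11, and those of chromosomes 20, 15 and 8 wholly above it.

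Far DMSO-only peaks had a like order. They numbered 3.29, 3.85 and 3.23 per 10 Mb on chromosomes 20, 15 and 8, above their overall 2.11, and none was on X. Over the 23 chromosomes the 2 densities had a Spearman rho of 0.70, as a description of libraries from the same cell line over the same sequence. Copy number was not analysed here.

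**Figure D3:**
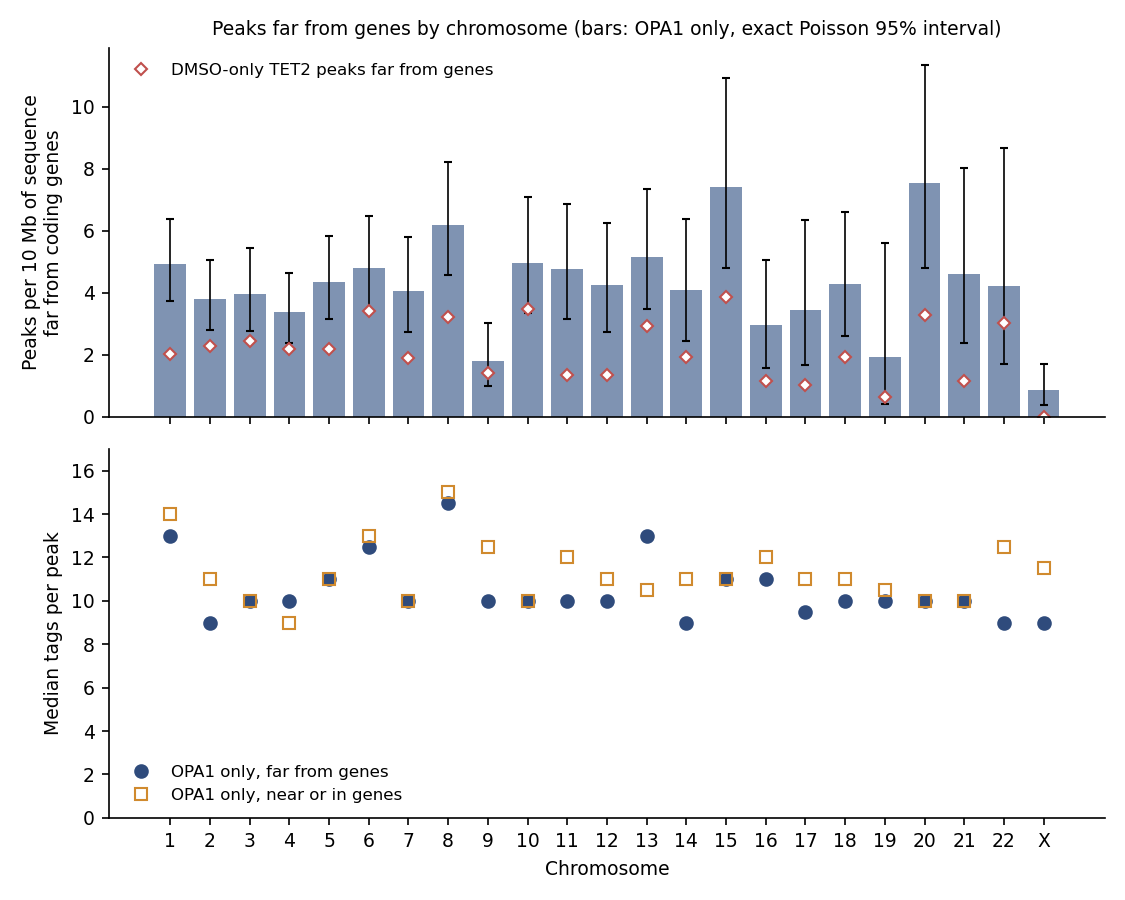
The upper panel gives members per 10 Mb of sequence far from coding genes (bars, exact Poisson 95% intervals) and far DMSO-only TET2 peaks (diamonds) for each chromosome, and the lower panel gives median tags per peak for members (filled) and the other OPA1-only peaks (open). Chromosome X has the lowest bar at 0.855, and chromosome 8 the highest median of members at 14.5 tags.

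Chromosome 8 members also carried more tags at lower folds. They held 9 to 33 tags with a median of 14.5 and a median fold of 9.28, against 11 tags and 10.975 for all members. Of the 48, 8 had 20 or more tags. The other OPA1-only peaks of chromosome 8 had a median of 15 tags and a median fold of 9.33, both near those of the members. Members on chromosomes 13 and 1 each had a median of 13 tags, at median folds of 9.465 and 10.62. The 8 members on X held 8 to 12 tags at a median fold of 13.88. Over the 23 chromosomes, median tags and median fold had a Spearman rho of -0.56. The part of the caller's p cutoff, background or copy number in this order was not tested.

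The members rested on few tags. The median was 11 tags per peak (quartiles 9 and 15, range 8 to 46), and 8 was also the fewest tags of any OPA1 TET2 peak. Exactly 8 tags were found in 91 members and 9 in 119. Members with 9 or fewer tags were 210 (34.5%, 30.9 to 38.4%), beside 26.2% of all OPA1 TET2 peaks. The share was 24.3% (20.1 to 29.04%) near gene ends and 25.6% (22.1 to 29.4%) deep in genes, and both intervals lay below that of the members. At 20 or more tags were 60 members (9.87%), beside 14.9% of the whole list, and 11 had 30 or more. A peak of 8 tags has an interval of 3.45 to 15.8, so absence from the DMSO list does not show absence of TET2 signal there. DMSO tags at these positions were not analysed here.

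Peak length was a median of 240 bp and density a median of 4.62 tags per 100 bp. The 608 peaks covered 158008 bp with 7694 tags, 0.0389% of the filtered tags. An FDR of at most 5% was met by 470 members (77.3%, 73.8 to 80.5%), beside 80.3% of the list. That share was 80.3% near gene ends, 79.5% deep in genes and 94.1% for peaks found in both treatments. A score (the negative log10 of the peak's p, multiplied by 10) of at least 100 was met by 29 members (4.77%, 3.34 to 6.77%), beside 7.78% of the list. Near gene ends it was 4.57%, deep in genes 4.86%, and in both treatments 34.7%. A fold of at least 10 was met by 424 members (69.7%), beside 69.0%. By FDR, score and fold the members thus resembled the other OPA1-only peaks, with overlapping intervals, and peaks found in both treatments had more tags, with a median of 19.

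**Figure D4:**
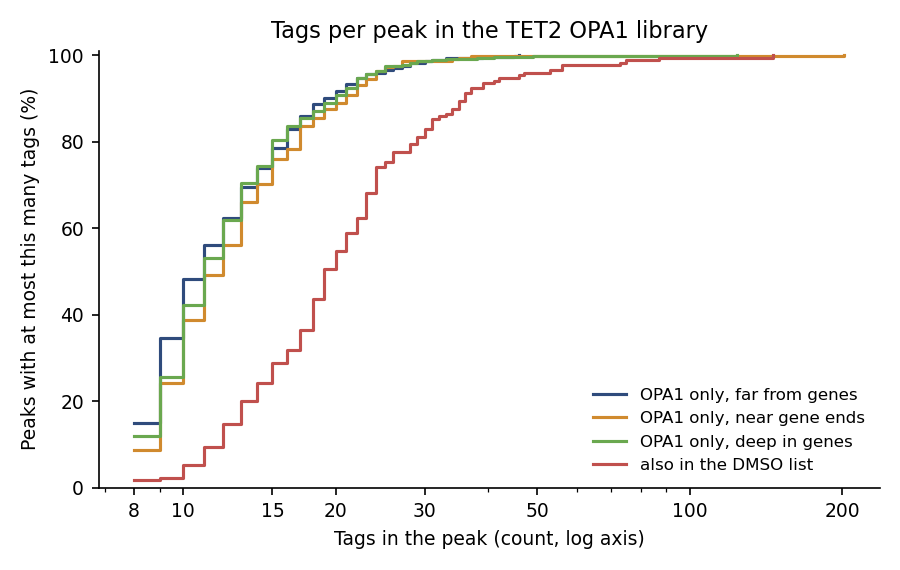
The curves give the percent of peaks with at most the number of tags on the log axis, for 4 classes of TET2 peaks in the OPA1 library. At 9 tags the curve of the members stands at 34.5%, above 24.3% near gene ends, 25.6% deep in genes and 2.35% for peaks also in the DMSO list.

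The 10 members with the highest folds included those by PCDH7, UACA, PTGS2, TLE3, SFMBT2, CTNNB1, RFC3, ALKBH3 and GOT2. The PCDH7 peak (chr4:33184742-33185081) had a fold of 25.63 on 17 tags (9.90 to 27.2). The peak 26179 bp from UACA had 24.56 on 21 tags. The PTGS2 peak (chr1:186575351-186575685) lay 96273 bp past the end of this gene of cyclooxygenase-2, with 26 tags (16.98 to 38.1), a fold of 24.52 and the highest score of all members, 168.49. The TLE3 peak, 288565 bp from this corepressor gene, had 23.62 on 27 tags. The genes UACA and TLE3 neighbour each other on chromosome 15, where their peaks named here start at 70628212 and 69759039. CTNNB1, the beta-catenin gene, had a peak 227763.5 bp before its start with a fold of 22.22 on 17 tags. The peak by ALKBH3, a DNA dealkylation enzyme gene, lay closest, at 11685.5 bp before its start with 22 tags. Of these named peaks, all but that of RFC3 (1.41%) had an FDR of 0%.

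The members with most tags were others. The pair by CTPS1, a nucleotide synthesis enzyme gene, and CITED4, a transcriptional coactivator gene, on chromosome 1 held 46 (33.7 to 61.4) and 45 tags (32.8 to 60.2). Their folds of 3.70 and 5.15 were the lowest 2 of all members. Within 2000000 bp of this pair lay 9 OPA1 TET2 peaks including these 2, with 41 to 202 tags, a median fold of 5.71 and a highest fold of 10.04. The DMSO list had 7 TET2 peaks in the same segment. SPEF2 followed with 42 tags at a fold of 8.07, then SFMBT2 with 39 tags at 11.30. The peaks by FEZ1 (fold 9.23), TRIP13 (7.85) and DNAJC5B (6.21) tied at 33 tags. The SFMBT2 gene, which encodes a Polycomb-type protein, thus flanked a member of each kind, at 230887.5 and 112259 bp.

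Tags and fold pointed in different directions. Members with 20 or more tags had a median fold of 9.66 and length of 398 bp, and those with 9 or fewer had 12.12 and 203 bp. The Spearman rho was -0.25 for tags and fold and 0.85 for tags and length, over peaks of 1 library. The lowest fold among members with 9 or fewer tags was 6.60, against 3.70 among those with 20 or more. Listing required a p below 1e-05, which a peak of few tags can meet only at a higher fold than a peak of many. Longer peaks also span more sequence in which tags are counted. These orders were thus partly set by how peaks are listed and counted, and that part was not tested.

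**Figure D5:**
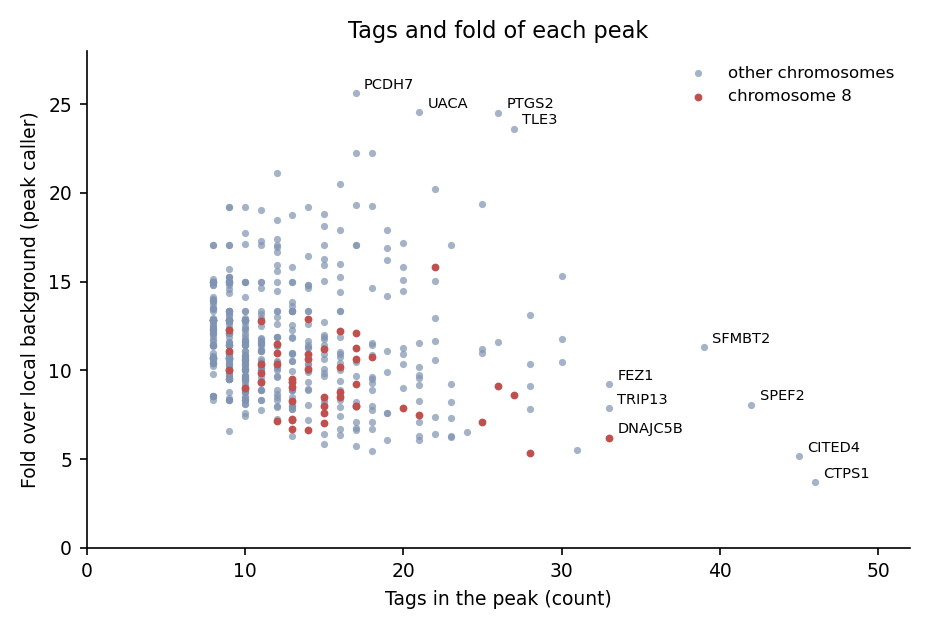
Each point is 1 member, placed by its tags and its fold over local background, with chromosome 8 in red. The highest folds, by PCDH7, UACA, PTGS2 and TLE3, lie at 17 to 27 tags, and the peaks with most tags, by CTPS1 and CITED4, at folds of 3.70 and 5.15.

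EGR1, an immediate early zinc-finger factor profiled in the same cells, seldom coincided with members or other OPA1-only peaks. In OPA1, 3 members overlapped an EGR1 peak by at least 1 bp (0.493%, 0.168 to 1.44%), beside 1.43% of all OPA1 TET2 peaks. The other OPA1-only peaks had 1 of 555 deep in genes (0.180%, 0.0318 to 1.01%) and 3 of 350 near gene ends (0.857%, 0.292 to 2.49%), with intervals that overlap that of the members, and peaks found in both treatments had 17 of 170 (10%). The members with an EGR1 overlap lay on chromosome 15 (19188526 to 19188651, 1107064.5 bp from LOC124903442), on chromosome 2 by ZEB2 in the lncRNA gene TEX41, and on chromosome 9 by SPATA31A6. The ZEB2 site held 9 TET2 tags and 14 EGR1 tags, the SPATA31A6 site 16 and 12, and the chromosome 15 site 8 and 8. The EGR1 peaks had FDRs of 21.04 to 23.7%, above the limit of 5%. A DMSO EGR1 peak overlapped 1 member (0.164%), beside 0.357% of the list, by FAM209B in LINC01716, with 17 TET2 tags and 8 EGR1 tags. Within 10000 bp there was an OPA1 EGR1 peak for 9 members and a DMSO EGR1 peak for 4.

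Gaps to DMSO TET2 peaks are given as a description only. The rule excluded overlap with that list, which held 891 peaks, and gaps of other OPA1 TET2 peaks were not summarised. The median gap from a member to a DMSO TET2 peak was 1085745 bp. Such a peak lay within 100000 bp of 54 members (8.88%) and within 10000 bp of 5. The smallest gap, 2231 bp, was by SNAI1, which encodes a repressor of epithelial genes, where the OPA1 peak had 12 tags and the DMSO peak 20. The others were by LOC124904970, KHDRBS2, SPRY1, a growth factor signalling inhibitor gene, and PCDH9, with gaps of 2549, 2538, 3979 and 6548 bp. There the OPA1 peaks had 8, 9, 19 and 15 tags and the DMSO peaks 9, 11, 10 and 10. The share of far peaks was 312 of 712 among DMSO-only TET2 peaks (43.8%, 40.2 to 47.5%) and 67 of 170 among shared peaks (39.4%, 32.4 to 46.9%). Both intervals overlapped that of the OPA1-only peaks, 37.7 to 42.7%.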

How the data were processed

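ChIP-seq peaks of TET2 and EGR1 in THP-1 cells were used, from 1 library per antibody and treatment. MACS 1.4.2 had called peaks in each library against its own treatment's input (p cutoff 1e-05, band width 200 bp, 50 bp tags, 1 tag per position), per the file headers. The submitters' processing notes name Bowtie2 2.2.6, GRCh38 and HOMER, the last without a role. Each deposited peak has a raw count of tags, a score (10 times the negative log10 p), a fold ratio over local background and an FDR in percent, which are the values of the authors' caller and were used only within their own list. The libraries held 19779007 to 19900311 filtered ChIP tags.

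Distances ran from the peak centre to RefSeq genes (GRCh38.p14, 19821 protein-coding of 58419). The table lists 679 genes of unplaced or alternate scaffolds under chromosome names. They were recognised by a drop in start position of over 1000000 bp and left out. miRNA hairpins came from this table. lncRNA promoter windows and mature miRNAs came from RefSeq sequence tables of the same assembly. Peak sequence outside these windows was not analysed here. Shares have Wilson and tags exact Poisson 95% intervals (scipy 1.17.1, pandas 2.3.3). The scripts were tested on simulated peaks.

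The members, gene lists and alternatives were chosen with earlier results of these data known. Named peaks were the 10 of highest fold, the 5 with most tags, the 5 farthest, those overlapping EGR1 peaks, groups of 3 and the 3 on each side of the distance limit. Named genes were their nearest genes, noncoding hosts by fold and flanking genes of fixed lists. The promoter and miRNA sites, pairs, chromosomes, family examples and peaks by TRIP13 and DNAJC5B were named after their values were seen. Some peaks and genes that these rules select are not reported here. Alternatives changed the overlap, distance, peak centre, FDR, fold, joining distance and gene definitions.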

Additional observations from a re-analysis of the deposited data

How the results depend on the processing

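Of 37 alternatives, 27 left their value within its interval or, for counts, within 1.5 times. At 5000 bp the members were 44.1% of OPA1-only peaks, and at 50000 bp they were 387 peaks or 25.6%. Keeping only peaks more than 10000 bp from noncoding genes as well, an alternative chosen after seeing the data, left 321. The number in groups was 46 with an FDR of at most 5%, 34 with a fold of at least 10 and 162 when joined within 500000 bp. The median was 12 tags with the FDR limit. Overlaps with OPA1 EGR1 peaks numbered 1 with a fold of at least 10 and 9 when counted within 10000 bp. In each case fewer peaks, more peaks (at 5000 bp) or a wider window entered by construction.

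No paired analysis was possible because each group had 1 library, and leaving out a replicate was not possible for the same reason. At 8 to 46 tags per peak, counting intervals are wide, so single peaks cannot be ordered by tags except at the extremes, and presence in 1 list alone does not show a change in binding.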
